A study of Mus musculus with 9 samples.

Results

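Transcripts of 9 genes linked to the fetal-like, YAP-dependent repair state of intestinal epithelium were followed in mouse colon by poly-A RNA sequencing. The genes, Ly6a, Clu, Anxa1, Anxa8, Emp1, Krt7, Sprr1a, Ccn1 and Ccn2, were chosen by name, and all 9 were found among the 21959 genes of the deposited table. The libraries came from colon tissue of wild-type mice in 3 groups of 3. Blank mice received no treatment, Model mice received dextran sulfate sodium (DSS), a sulfated polymer that injures the colon lining, and CDs mice received DSS together with carbon dots, nanometre-sized carbon particles, prepared from lotus node charcoal. Neither the strain and age of the mice nor the dose and schedule of either agent was known here.

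When the colon lining is injured, crypt cells at the wound edge lose the Lgr5 stem cell programme and take up a programme resembling that of the fetal gut epithelium. Ly6a, which encodes the surface protein Sca-1, marks this state, and YAP and TAZ, the co-activators at the end of the Hippo kinase cascade, promote it by binding DNA through TEAD factors. Ccn1 and Ccn2 are the most widely used YAP target genes in many cell types. Several of the genes are also used outside epithelium: Ly6a is also made by endothelium and lymphocytes, Anxa1 by neutrophils, and Ccn1 and Ccn2 by fibroblasts, endothelium and smooth muscle. In bulk colon tissue, more cells of a type and more RNA per cell cannot be told apart.

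The libraries held 13868864 to 19940300 counted reads, and no member had fewer than 32 reads in any library. Libraries stood apart in transcripts of neighbouring organs. Summed pancreatic acinar genes reached 8848 CPM (counts per 1000000 reads after TMM scaling) in Model 1, 73990 CPM in Model 3 and 360.3 CPM in CDs 1, against 26.97 to 230.5 CPM in the other 6 libraries. Pbsn, a gene of the prostate, reached 894.7 CPM in Blank 2 and 112.7 CPM in Blank 3, with 0 to 0.237 CPM elsewhere. Values without these libraries are given where they differ. Lgr5, the crypt stem cell marker, was at 14.9 ± 2.67 CPM in Blank, 1.08 ± 0.412 in Model and 0.599 ± 0.317 in CDs (SD, n = 3 each).

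The promoters of 4 members are shown because they carry the core letters of TEAD or AP-1 factors, which are known to bind many YAP-regulated genes together. Each sequence is the 250 bases before the RefSeq transcription start in GRCm38.p6, written 5′ to 3′ on the gene's strand, and capitals mark GGAATG or its reverse complement (TEAD core) and TGANTCA (AP-1 core, searched on both strands; the motifs share no letters here).
Ccn1, chr3:145649986-145650235, minus strand: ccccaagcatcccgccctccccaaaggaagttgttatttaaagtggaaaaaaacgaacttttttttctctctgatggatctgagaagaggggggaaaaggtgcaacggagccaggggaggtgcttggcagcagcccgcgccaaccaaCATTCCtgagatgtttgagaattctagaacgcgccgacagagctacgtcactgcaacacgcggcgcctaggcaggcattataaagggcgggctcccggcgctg
Anxa1, chr19:20390672-20390921, minus strand: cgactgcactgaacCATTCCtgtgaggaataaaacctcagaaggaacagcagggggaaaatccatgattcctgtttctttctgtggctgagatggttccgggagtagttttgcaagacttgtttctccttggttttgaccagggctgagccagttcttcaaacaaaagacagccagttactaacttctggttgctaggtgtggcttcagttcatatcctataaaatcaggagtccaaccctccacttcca
Sprr1a, chr3:92485882-92486131, minus strand: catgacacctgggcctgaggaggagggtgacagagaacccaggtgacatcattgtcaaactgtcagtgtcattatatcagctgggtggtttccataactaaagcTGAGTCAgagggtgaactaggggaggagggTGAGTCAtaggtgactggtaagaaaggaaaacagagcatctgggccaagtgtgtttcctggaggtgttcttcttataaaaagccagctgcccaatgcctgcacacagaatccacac
Emp1, chr6:135362681-135362930, plus strand: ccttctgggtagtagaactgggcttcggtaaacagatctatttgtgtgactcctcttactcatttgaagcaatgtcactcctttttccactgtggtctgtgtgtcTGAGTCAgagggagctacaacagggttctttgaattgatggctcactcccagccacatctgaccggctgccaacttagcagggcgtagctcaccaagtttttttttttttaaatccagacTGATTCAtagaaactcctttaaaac
The TEAD core began 103 bases before the start in Ccn1 and 236 bases before it in Anxa1. The AP-1 core began 146 and 116 bases before the start in Sprr1a and 145 and 25 bases before it in Emp1. Among 20397 promoter windows of the same length for genes of the table, 11.5% held the TEAD core and 6.23% the AP-1 core. The windows of Anxa8, of Krt7 and of a second Emp1 start held neither, and those of Ly6a, Clu and Ccn2 were not used here.

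In the coordinates of the deposited table, to which no build is assigned here, Anxa1 lies on chromosome 19 (20350792 to 20368308), Anxa8 on chromosome 14 (33807938 to 33822528) and Emp1 on chromosome 6 (135339543 to 135360171). Krt7 lies on chromosome 15 (101308924 to 101328194), Ccn2 on chromosome 10 (24471340 to 24474581), and Sprr1a (92391259 to 92393202) and Ccn1 (145352731 to 145355736) on chromosome 3. Expression differed widely between the members. Per gene length, in the deposited FPKM, Ly6a was highest in Blank at 229 ± 66.6, followed by Emp1 at 81.0 ± 47.1, Anxa1 at 73.9 ± 7.91 and Anxa8 at 33.3 ± 12.7 (SD, n = 3 each). Clu (15.4 ± 4.01 FPKM), Ccn2 (11.9 ± 2.58) and Krt7 (11.2 ± 0.581) lay close together, and Ccn1 (5.78 ± 0.397) and Sprr1a (5.45 ± 2.56) were lowest. For the neighbours Emp1 and Anxa1, Clu and Ccn2, Ccn2 and Krt7, and Ccn1 and Sprr1a the ranges of mean ± SD overlapped. In Model the order was Ly6a at 655 ± 98.5 FPKM, Anxa1 at 142 ± 66.2, Emp1 at 109 ± 33.4, Anxa8 at 70.8 ± 17.1, Clu at 55.0 ± 13.8, Ccn2 at 18.6 ± 8.07, Ccn1 at 15.9 ± 9.31, Sprr1a at 12.5 ± 1.21 and Krt7 at 9.25 ± 4.08 (SD, n = 3 each). In that group Ly6a ranked 46th of all genes of the table by FPKM, against 135th in Blank and 22nd in CDs. Krt7, which lay above Ccn1 and Sprr1a in Blank, came last in Model and in CDs, with spreads in both groups that overlapped those of its neighbours. In CDs it was at 7.79 ± 1.88 FPKM, beside 10.5 ± 4.10 for Ccn1 and 10.9 ± 8.02 for Sprr1a (SD, n = 3 each).

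The first comparison, Model versus Blank, asks how far injured colon took up these transcripts. Of the 9 genes, 5 rose (Clu, Ly6a, Ccn1, Anxa8 and Anxa1) and none fell at an edgeR adjusted p under 0.05, and 8 of 9 had a log2 fold change above 0. Of all 14921 tested genes 44.1% were called, 24.5% higher and 19.6% lower. The median log2 fold change was 1.03 over the members and -0.03 over all tested genes. The groups did not overlap, with Model higher, for 5 members (Clu, Ly6a, Anxa1, Anxa8 and Sprr1a), beside 30% of all tested genes, and with Model lower for none, beside 31%. The third group, CDs, was set against the same Blank libraries, where 2 of the 9 rose (Clu and Ly6a) and none fell, beside 35.6% of all tested genes called and 21.8% called higher. There the groups did not overlap, with CDs higher, for 5 members (Ly6a, Clu, Anxa1, Anxa8 and Ccn1), beside 28.2% of all tested genes, and with CDs lower for Krt7, beside 25.9% (54.1% in either direction). The 2 comparisons share their Blank libraries.

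**Figure D1:**
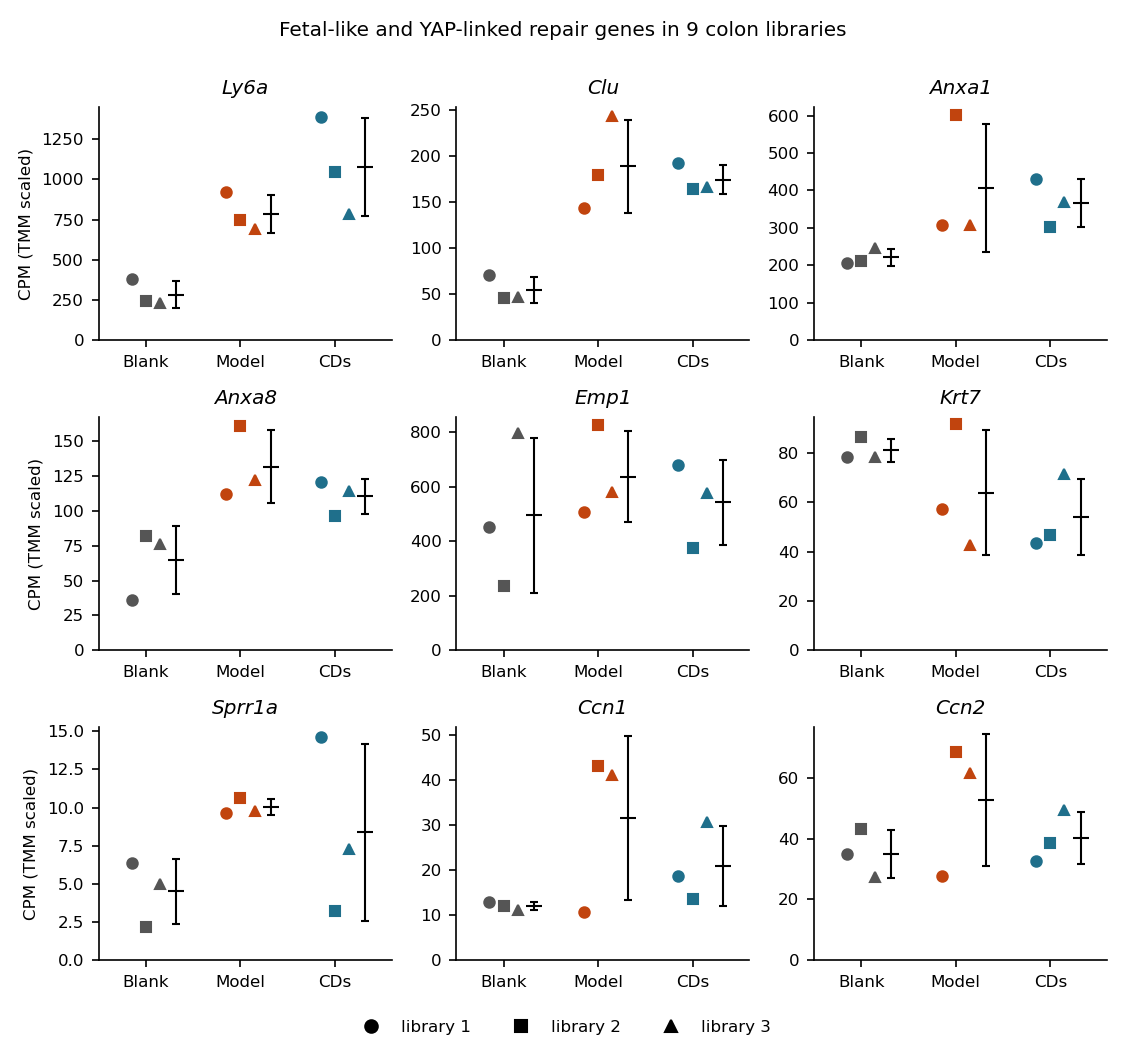
TMM-scaled CPM of the 9 genes (y axes from 0) in each library, by group, with circle, square and triangle for libraries 1, 2 and 3 and the mean ± SD over 3 libraries beside them. All Model and CDs libraries lie above all Blank libraries for Ly6a, Clu, Anxa1 and Anxa8, while Ccn1 and Ccn2 are high in Model 2 and Model 3 and not in Model 1.

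Ly6a and Clu had the 2 highest fold changes of the members in the CDs group and the 2 lowest p-values in both comparisons with Blank. Ly6a, on chromosome 15 (74866726 to 74869880 in the deposited table), encodes the GPI-anchored surface protein Sca-1. It was at 381.2, 244.1 and 229.3 CPM in the Blank libraries, 917.9, 744.9 and 690.0 CPM in Model and 1389, 1048 and 782.9 CPM in CDs. Each DSS-treated library thus lay above each Blank library, CDs 1 being the highest. The log2 fold change was 1.46 ± 0.27 in Model versus Blank (SE; edgeR adjusted p = 0.00302) and 1.91 ± 0.27 in CDs versus Blank (edgeR adjusted p = 0.00131). Without Blank 2 and Blank 3, the libraries with prostate transcripts, these values were 1.04 (edgeR adjusted p = 0.116) and 1.49 (edgeR adjusted p = 0.0768), from a fit with Blank 1 as the sole Blank library and its spread taken from the other groups. Summed T cell markers were also highest in CDs 1, at 188.7 CPM against 29.15 to 100.4 CPM in the other 8 libraries. Of 9 tested T cell markers 1 rose in Model versus Blank and 3 in CDs versus Blank, beside 24.5% and 21.8% of all tested genes. Endothelial markers rose in 14 of 15 genes in Model versus Blank and in 15 of 15 in CDs versus Blank, with sums of 350.9 to 358.6 CPM in Blank, 754.8 to 1024 in Model and 715.1 to 969 in CDs. The part of either cell type in the Ly6a level was not tested.

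Clu encodes clusterin, a secreted chaperone that marks the revival stem cells of injured intestine, and lies on chromosome 14 (66205932 to 66218996). Its level was 71.2, 45.6 and 47.3 CPM in Blank, 142.9, 179.4 and 242.6 CPM in Model and 191.8, 163.5 and 165.9 CPM in CDs. Every DSS-treated library lay well above the highest Blank library. Its log2 fold change was 1.78 ± 0.23 in Model versus Blank (SE; edgeR adjusted p = 6.55e-04), the highest of the 9 members, and 1.67 ± 0.23 in CDs versus Blank (edgeR adjusted p = 0.00117). In Model versus Blank the median log2 fold change was 1.75 over 15 fibroblast markers and 1.45 over 15 endothelial markers. It was 1.93 over 12 monocyte and macrophage markers and -0.73 over 14 pan-epithelial markers. The part of any of these cell types in the Clu level was not tested. Leaving out any single library kept the calls of Clu and of Ly6a in both comparisons with Blank, with Clu between 1.57 and 2.03 in Model versus Blank. Without both Blank libraries with prostate transcripts the CDs versus Blank value of Clu was 1.29 (edgeR adjusted p = 0.0669).

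The annexins, calcium-dependent membrane-binding proteins, rose less. Anxa1, which in its secreted form limits leukocyte entry and promotes wound closure, was at 207.4, 211.0 and 247.3 CPM in Blank, 308.8, 602.6 and 308.0 CPM in Model and 430.7, 302.6 and 369.6 CPM in CDs. All DSS-treated libraries lay above Blank, and Model 2 held 1.96 times the level of Model 3, the lowest Model library. Anxa1 had a log2 fold change in Model versus Blank of 0.87 ± 0.27 (SE; edgeR adjusted p = 0.0275), and without Model 2 it was 0.48 (edgeR adjusted p = 0.0616). Against Blank, Model 2 alone had a value of 1.44, which describes that library only. The call was also lost without any single Blank library (edgeR adjusted p = 0.0538 to 0.0817). Summed neutrophil markers were at 2833 CPM in Model 2, against 474.2 and 716.5 CPM in Model 1 and Model 3 and 79.62 to 98.64 CPM in Blank. Most of the Blank sum was Ly6g, at 70.76 to 86.03 CPM. Of these markers 12 of 12 rose in Model versus Blank, beside 24.5% of all tested genes. Their part in the Anxa1 level was not tested. In CDs versus Blank the Anxa1 value was 0.73 ± 0.27 (SE; edgeR adjusted p = 0.0607).

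Anxa8, known mainly from stratified and fetal-type epithelium, was at 36.4, 81.6 and 76.0 CPM in Blank, 111.7, 160.8 and 122.1 CPM in Model and 120.5, 96.2 and 114.3 CPM in CDs. Blank 1 lay well below the 2 Blank libraries with prostate transcripts, and every DSS-treated library lay above all 3. Its log2 fold change was 1.03 ± 0.28 in Model versus Blank (SE; edgeR adjusted p = 0.0173), and without Model 2 it was 0.86 (edgeR adjusted p = 0.0607). Against Blank 1 alone it was 1.86 (edgeR adjusted p = 0.0276). In CDs versus Blank it was 0.77 ± 0.28 (edgeR adjusted p = 0.0569). That value was 0.49 without Blank 1 and 1.60 against Blank 1 alone (edgeR adjusted p = 0.0745 and 0.0395). Anxa8 overlaps the gene A630023A22Rik in the table, whose mean was at most 1.62 CPM in any group. Mesothelial markers rose in 5 of 10 genes in Model versus Blank, beside 24.5% of all tested genes. In CDs versus Blank 8 of the 10 rose, beside 21.8% of all tested genes. The part of this or any other cell type in the Anxa8 level was not tested.

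Other annexins moved in both directions. Of 11 tested annexins 5 rose in Model versus Blank, the members included, and 3 fell, beside 24.5% and 19.6% of all tested genes. Anxa5 (log2 fold change 0.93; edgeR adjusted p = 0.00134), Anxa6 (1.16; 6.63e-04) and Anxa2 (0.47; 0.0304) rose. Anxa4 (-0.75; edgeR adjusted p = 0.0105) and Anxa11 (-0.86; 0.00420) fell, as did Anxa13, from a mean of 18.2 to 4.59 CPM (edgeR adjusted p = 0.0472). In the Ly6 family, 5 of 8 tested genes rose, beside the same 24.5% of all tested genes. Those other than Ly6a were Ly6c1 (2.37; edgeR adjusted p = 0.00310), Ly6c2 (0.92; 0.0325), Ly6d (1.27; 0.0272) and Ly6g (1.62; 0.00151), while Ly6e had a log2 fold change of 0.08. Members of this family are alike in sequence, so that the division of reads among them, and each single value, is uncertain.

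Ccn1 and Ccn2 encode secreted matricellular proteins, also known as CYR61 and CTGF. Ccn1 was at 12.9, 12.1 and 11.1 CPM in Blank, 10.7, 43.2 and 41.0 CPM in Model and 18.6, 13.5 and 30.7 CPM in CDs. Model 2 and Model 3 were thus far above Blank, whereas Model 1 lay below all 3 Blank libraries. The log2 fold change of 1.39 ± 0.48 in Model versus Blank passed the threshold (SE; edgeR adjusted p = 0.0426), but not without any single Blank library (edgeR adjusted p = 0.0917 to 0.11), without Model 2 (1.10; 0.135) or without Model 3 (1.18; 0.128). In CDs versus Blank it was 0.79 ± 0.48 (SE; edgeR adjusted p = 0.22), although all CDs libraries lay above all Blank libraries.

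Ccn2 showed the same order within Model, with 27.8, 68.5 and 61.3 CPM, beside 34.8, 43.0 and 27.3 CPM in Blank and 32.6, 38.5 and 49.3 CPM in CDs. Model 1 was again the lowest Model library, here within the Blank range. The log2 fold change was 0.59 ± 0.32 in Model versus Blank (SE; edgeR adjusted p = 0.162) and 0.19 ± 0.32 in CDs versus Blank (edgeR adjusted p = 0.656). Without Model 1 the first value was 0.89 (edgeR adjusted p = 0.0121) and without Model 2 it was 0.35 (edgeR adjusted p = 0.452), and 1 of the 9 single omissions gave a call. Summed fibroblast markers were likewise lowest in Model 1 among the Model libraries, at 6790 CPM against 14430 and 10900 CPM in Model 2 and Model 3 and 2576 to 2898 CPM in Blank. Of these markers 15 of 15 were higher in Model, beside 24.5% of all tested genes. The endothelial sum was likewise lowest in Model 1, at 754.8 CPM against 1003 and 1024 CPM. The part of either cell type in the Ccn1 and Ccn2 levels was not tested.

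The other members of the CCN family did not share one direction. Ccn4 (log2 fold change 2.70 in Model versus Blank; edgeR adjusted p = 3.36e-04) and Ccn5 (3.11; 0.00307) rose, and Ccn3 fell (-2.16; 0.0262). Ccn3 was at 274.8, 184.9 and 513.5 CPM in Blank and 45.3 to 109.1 CPM in Model, and Ccn4 went from 4.44 to 6.11 CPM in Blank to 21.6 to 46.3 CPM in Model. Ccn6 was too low to be tested.

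Emp1, Krt7 and Sprr1a, which mark squamous or ductal features of repair epithelium, did not pass the test in either comparison. Emp1, a membrane protein of epithelial junctions, was at 451.2, 234.7 and 798.4 CPM in Blank, 506.2, 824.9 and 578.9 CPM in Model and 679.2, 373.7 and 577.0 CPM in CDs. The range of the Blank libraries took in every DSS-treated library but Model 2. Its log2 fold change in Model versus Blank was 0.36 ± 0.41 (SE; 95% interval -0.57 to 1.30; edgeR adjusted p = 0.496). It was 0.04 without Blank 2 and 0.90 without Blank 3 (edgeR adjusted p = 0.944 and 0.0979).

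Krt7, an intermediate filament protein of ductal and glandular epithelia, was the only member with a fold change below 0 against Blank. It was at 78.3, 86.4 and 78.6 CPM in Blank, 57.4, 92.0 and 42.7 CPM in Model and 43.8, 46.9 and 71.6 CPM in CDs. All CDs libraries and 2 of the Model libraries lay below Blank, and Model 2 lay above it. Its fold change on the log2 scale was -0.34 ± 0.27 in Model versus Blank (SE; edgeR adjusted p = 0.338), and without Model 2 it was -0.70 (edgeR adjusted p = 0.0496). In CDs versus Blank it was -0.59 ± 0.28 (SE; edgeR adjusted p = 0.125). In Model 2 alone against Blank, without the libraries with pancreatic transcripts, it was 0.18, a value of that library only. Of the 6 simple epithelial keratins, Krt80 rose in Model versus Blank (log2 fold change 1.81; edgeR adjusted p = 8.41e-04) and Krt18 fell (log2 fold change -0.90; edgeR adjusted p = 0.00983).

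Sprr1a, a precursor of the cornified envelope of squamous epithelium, was the lowest member in reads. It was at 6.37, 2.20 and 5.02 CPM in Blank, 9.66, 10.6 and 9.79 CPM in Model and 14.7, 3.23 and 7.28 CPM in CDs. The Model libraries lay close together and above Blank, while the CDs libraries spanned both groups. Sprr1a had a log2 fold change of 1.15 ± 0.52 in Model versus Blank (SE; 95% interval -0.03 to 2.32; edgeR adjusted p = 0.101). In a fit of the 6 libraries compared it was 1.16 (edgeR adjusted p = 0.0324), and without CDs 1 and without CDs 2, whose Sprr1a levels differ most, edgeR adjusted p was 0.0433 and 0.0493. The other 7 single omissions gave no call, and without Blank 2 the value was 0.82 (edgeR adjusted p = 0.257). The CDs versus Blank value was 0.89 ± 0.52 (SE; edgeR adjusted p = 0.207), and without CDs 1 it was 0.20 (edgeR adjusted p = 0.757). Sprr1b, its nearest relative, had no read in any library, and neither did Sprr3 and Sprr4. Among the squamous markers, Krt6a was at 0 in all 9 libraries. Krt14 was at 0.32 to 1.40 CPM in Blank, 0.47 to 1.23 in Model and 1.855 to 6.176 in CDs. Its log2 fold change in CDs versus Blank was 1.99. The other tested keratins of the list went the other way there without a call: Krt5 (-1.14), Krt15 (-1.40) and Krt17 (-0.20). The summed squamous list was at 14.43 to 22.37 CPM in Model and 26.37 to 42.48 CPM in CDs, against 49.81 to 76.48 CPM in Blank. In Model versus Blank 0 of 7 tested genes were higher and 2 lower, beside 24.5% and 19.6% of all tested genes. Pkp1, a desmosomal plaque protein, carried that sum, and without it the list was at 6.56 to 10.6 CPM in Blank and 4.76 to 9.73 CPM in Model, which overlap. In CDs the list without Pkp1 was at 11.06 to 21.43 CPM, above all Blank and Model libraries and highest in CDs 1. The lowest, CDs 2 at 11.06 CPM, lay close to Blank 2 at 10.63 CPM. Different genes carried this sum. The largest parts were Dsc3 (9.79 CPM) and Dsg3 (7.81 CPM) in CDs 1 and Krt14 (6.18 CPM) in CDs 3. In CDs 2 they were Krt17 (3.05 CPM) and Krt14 (2.93 CPM). In CDs versus Blank 2 of the 7 tested squamous genes rose and 1 fell, beside 21.8% and 13.8% of all tested genes. Of 5 tested SPRR and cornified envelope genes, 1 rose and none fell in Model versus Blank, beside 24.5% and 19.6% of all tested genes. Their median log2 fold change was -0.04, and Sprr2a1 (-0.04), Sprr2a2 (-0.48) and Sprr2a3 (-0.20) did not pass the test. The gene that rose, Tgm1, the transglutaminase that crosslinks the cornified envelope, went from 0.295 to 0.514 CPM in Blank to 5.16 to 7.44 CPM in Model (log2 fold change 4.01; edgeR adjusted p = 3.07e-04).

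Within the DSS-treated libraries the members did not all peak in the same library. Of the 9 genes, 6 (Anxa1, Anxa8, Emp1, Krt7, Ccn1 and Ccn2) were highest in Model 2, Ly6a and Sprr1a were highest in CDs 1 and Clu was highest in Model 3. The ratio of the highest to the lowest DSS-treated library was smallest for Anxa8, at 1.67, and Clu, at 1.70, and largest for Ccn1, at 4.05, and Sprr1a, at 4.54.

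The second question was whether carbon dots altered these transcripts in DSS-treated colon. In CDs versus Model edgeR called 0 of the 9 members, and 0 had an unadjusted p under 0.05. DESeq2 also called 0 of the 9. Of all tested genes 0% were called and 5.28% had an unadjusted p under 0.05. The groups overlapped for all 9 members, beside 7.99% of tested genes whose groups did not, 3.22% with CDs higher and 4.77% with CDs lower. Ly6a had the only log2 fold change above 0, at 0.45 ± 0.26 (SE; 95% interval -0.14 to 1.04; edgeR adjusted p = 0.936). The other 8 were between -0.60 for Ccn1 (95% interval -1.67 to 0.46) and -0.12 for Clu (-0.62 to 0.39), beside a median of 0.02 over all tested genes. For every member the interval takes in both no change and, in at least 1 direction, a difference of more than 1.5-fold. Without Model 2 the signs of Anxa1 (0.25), Krt7 (0.11) and Emp1 (0.00) turned, without Model 3 that of Clu (0.11) and without CDs 2 that of Sprr1a (0.13). Without the 3 libraries with pancreatic transcripts, CDs 2 and CDs 3 are set against Model 2 alone, the library with the most Anxa1 of all 9. The Anxa1 value there was -0.84 (edgeR adjusted p = 0.0256, with the spread taken from the other groups), which describes that library and not the Model group.

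**Figure D2:**
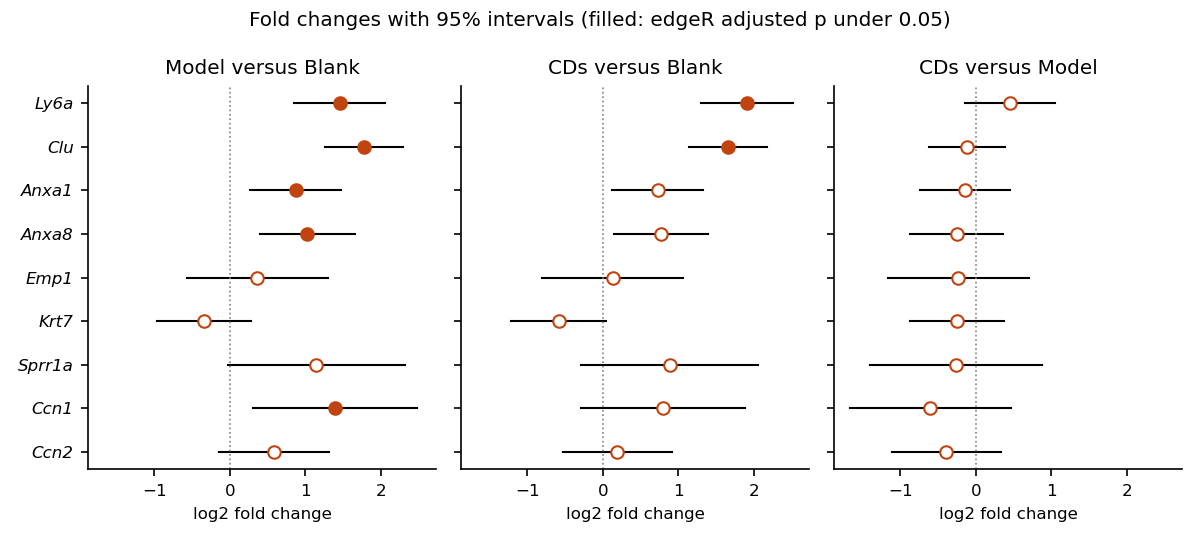
log2 fold change (x axis) of each gene with its 95% interval in the 3 comparisons, filled where the edgeR adjusted p was under 0.05. Filled points are 5 in Model versus Blank and 2 in CDs versus Blank, and every interval in CDs versus Model includes 0.

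Because the members are used as epithelial genes, each was also set against epithelial transcripts of the same library. The 14 pan-epithelial genes (Epcam, Cdh1, Krt8 and others) took 1.18% to 1.33% of reads in Blank, 0.615% to 1.10% in Model and 0.707% to 1.21% in CDs, and 4 of the 14 fell in Model versus Blank, beside 19.6% of all tested genes called lower (Esrp1, a splicing factor of epithelial cells, by 1.43 on the log2 scale; edgeR adjusted p = 0.0111). Per 1000 such reads, Ly6a had 17.3 to 27.7 reads in Blank, 82.6 to 111 in Model and 63.5 to 213 in CDs. Clu had 3.57 to 5.17, 12.9 to 38.4 and 13.4 to 29.4 reads. On this scale the Model libraries lay above all Blank libraries for 5 members (Ly6a, Clu, Anxa1, Anxa8 and Sprr1a) and the CDs libraries for 6 (Ly6a, Clu, Anxa1, Anxa8, Ccn1 and Ccn2). Of all tested genes 54.8% lay above Blank in this way in Model and 41% in CDs, so the 5 of 9 in Model is close to the background. The mean log2 ratio differed between Model and Blank by 2.53 for Clu, 2.24 for Ly6a, 1.84 for Anxa8 and 1.55 for Anxa1 (exact permutation test, two-sided p = 0.1 each, the smallest that 3 against 3 allows; adjusted p = 0.245 over 27 tests). For Krt7 the difference was 0.34 (exact permutation p = 0.7). Between CDs and Model the differences were 0.15 for Ly6a and -0.79 to -0.36 for the other 8, with exact permutation p of 0.2 or more.

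**Figure D3:**
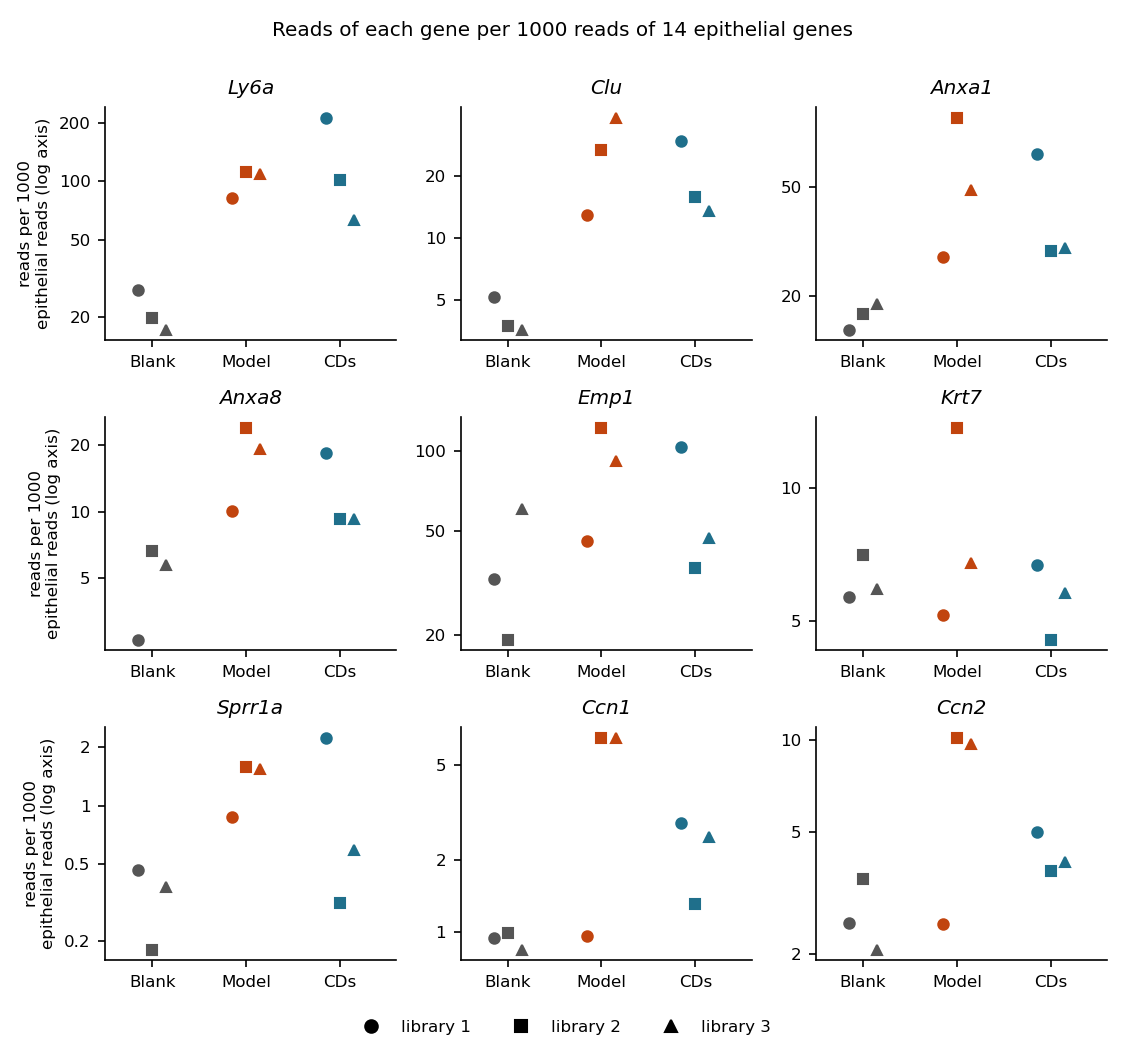
Reads of each gene per 1000 reads of 14 epithelial genes (log axes) in each library, by group, with circle, square and triangle for libraries 1, 2 and 3. Ly6a, Clu, Anxa1 and Anxa8 are higher in all DSS-treated libraries than in all Blank libraries, whereas Krt7 overlaps between groups apart from a high value in Model 2.

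With summed epithelial reads as the library size in the fit across all genes, the median log2 fold change of all tested genes became 0.76 in Model versus Blank. Against that shifted median, Clu was at 2.65 ± 0.41, Ccn1 at 2.33 ± 0.56 and Ly6a at 2.22 ± 0.40 (SE), and Sprr1a (1.97; edgeR adjusted p = 0.0226) and Ccn2 (1.47; edgeR adjusted p = 0.0178) joined the called genes. With this scaling 5667 of all 14921 tested genes were called higher and 283 lower, against 3654 and 2920 with TMM scaling. The added calls therefore do not set Sprr1a and Ccn2 apart from other genes. Krt7, at 0.46, lay below the median of all genes on this scale too.

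Genes around the members were described from lists of the Hippo cascade, of other YAP and TEAD targets and of other fetal-like genes. The Hippo components rose in 9 of 23 tested genes and fell in 5 in Model versus Blank, beside 24.5% of all tested genes called higher and 19.6% lower, with a median of 0.30. Wwtr1, which encodes the co-activator TAZ, had the smallest p among them and went from 43.1 ± 4.27 CPM in Blank to 130.5 ± 19.1 in Model and 105.8 ± 7.76 in the CDs group (SD, n = 3 each). Its log2 fold change was 1.60 ± 0.13 in Model versus Blank (SE; edgeR adjusted p = 2.25e-04). Dchs1, a protocadherin upstream of the cascade, rose by 1.56 ± 0.16 (edgeR adjusted p = 3.41e-04). Amot, a YAP-binding scaffold, fell from 47.2 ± 2.80 to 18.4 ± 5.39 CPM (edgeR adjusted p = 0.00150). Vgll4, which competes with YAP for TEAD, fell by 0.62 on the log2 scale (edgeR adjusted p = 0.00459). Fibroblast markers rose in 15 of 15 genes and endothelial markers in 14 of 15, beside the same 24.5% of all tested genes. The part of these cell types in the Hippo values was not tested.

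Of 23 other YAP and TEAD targets, 13 rose and 2 fell in Model versus Blank, beside 24.5% of all tested genes called higher and 19.6% lower. Their median log2 fold change was 0.62. Rbms3, an RNA-binding protein, was at 22.0 ± 3.16 CPM in Blank, 61.0 ± 6.64 in Model and 49.4 ± 3.89 in CDs, and Ccdc80, a matrix protein, at 44.5 ± 7.66, 152 ± 26.3 and 152 ± 28.1 CPM (SD, n = 3 each). Their log2 fold changes in Model versus Blank were 1.47 ± 0.14 and 1.77 ± 0.19 (SE; edgeR adjusted p = 2.69e-04 and 3.77e-04). Nuak2, a kinase, fell by 0.47 (edgeR adjusted p = 0.0344) and Birc5, the cell division gene that encodes survivin, by 1.37 (edgeR adjusted p = 0.0351). In CDs versus Blank 13 of these targets rose and none fell, beside 21.8% of all tested genes called higher and 13.8% lower. Several targets on this list are also made by fibroblasts, whose markers rose in 15 of 15 genes, and their part was not tested.

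Among 23 tested other fetal-like genes, 14 rose and 1 fell in Model versus Blank, beside 24.5% of all tested genes called higher and 19.6% lower, with a median of 1.01. Monocyte and macrophage markers rose in 11 of 12 genes, with sums of 584.2 to 822.5 CPM in Blank, 1939 to 2557 in Model and 2337 to 3062 in CDs, and neutrophil markers in 12 of 12. Some genes of the list, such as Spp1, Plaur, Il1rn and Tnfaip2, are known to be made by myeloid cells as well, and the part of those cells was not tested. Il33, an alarmin cytokine, rose from 7.05 ± 1.43 to 118 ± 31.9 CPM, with 85.6 ± 25.4 CPM in the CDs group (SD, n = 3 each). This gave a log2 fold change of 4.07 ± 0.30 in Model versus Blank (SE; edgeR adjusted p = 1.76e-04). Tnfaip2 rose by 2.56 ± 0.22 (edgeR adjusted p = 2.33e-04). Hmga2, a chromatin protein of fetal and stem cells, fell from a mean of 14.5 to 1.68 CPM (log2 fold change -3.14 ± 0.34; edgeR adjusted p = 3.95e-04). In CDs versus Model none of the 3 lists had a called gene in edgeR. DESeq2 called 1 of the fetal-like genes lower. Against Blank 1 alone, 4 of the targets, 8 of the fetal-like genes and 4 of the Hippo components were called in either direction in Model, beside 9.94% of all genes tested in that fit.

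**Figure D4:**
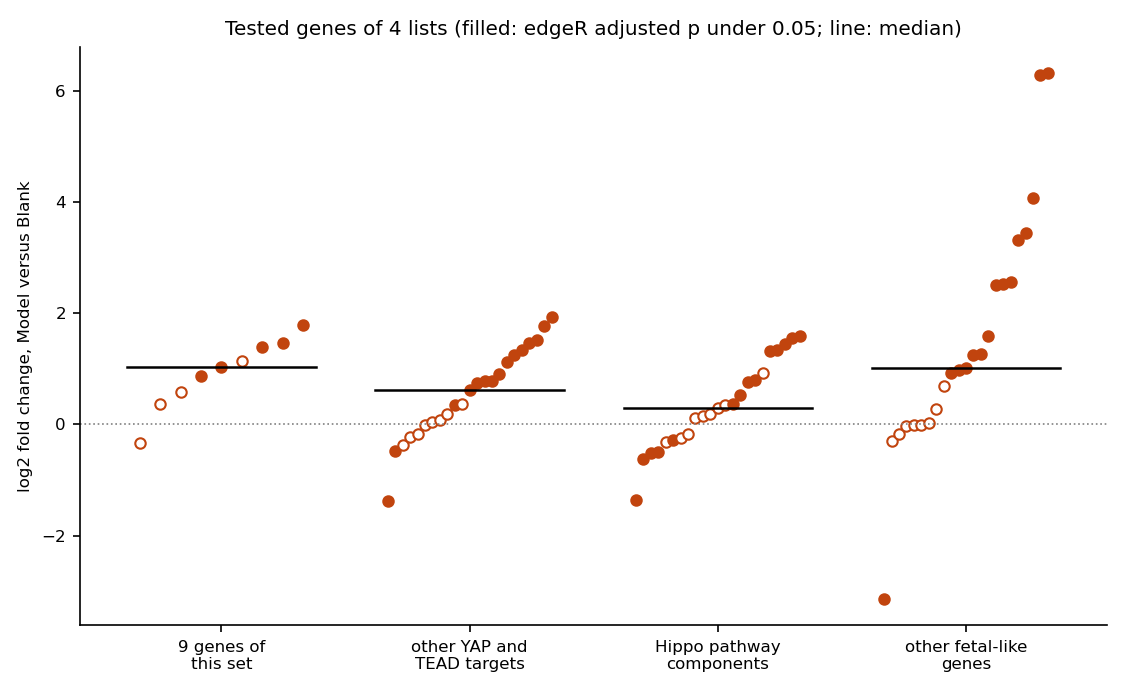
log2 fold change in Model versus Blank (y axis) of the tested genes of 4 lists, sorted within each list, filled where the edgeR adjusted p was under 0.05, with a line at the list's median. The medians are 1.03 for the 9 genes, 0.62 for other YAP and TEAD targets, 0.30 for Hippo components and 1.01 for other fetal-like genes.

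The genes with the closest profile to each member were sought among 12768 tested genes by the root mean square difference of centred log2 CPM over the 9 libraries. Clu was followed most closely by Apold1 (0.13) and Tgfb1 (0.14), Ly6a by Tnfrsf1b (0.17) and Klrg1 (0.19), Anxa1 by Vill (0.15) and S100a11 (0.16), and Anxa8 by Porcn (0.18) and Spire1 (0.19). Ccn1 was nearest to Egr1 (0.31) and Plk2 (0.33), and Ccn2 to B3gnt9 (0.20) and Spry2 (0.21). Krt7 was nearest to Gsta1 (0.10) and Bivm (0.18), Emp1 to Cry1 (0.24) and Cntnap1 (0.30), and Sprr1a to Ak4 (0.41) and Gimap7 (0.43). No member was among the 2 nearest genes of another member.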

How the data were processed

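Poly-A RNA of mouse colon tissue was sequenced in 9 libraries, and groups and replicate numbers were taken from the sample titles. The submitters' processing notes name HTSeq 0.9.1, HISAT2 2.1.0 and fastp 0.22.0 without their settings. The genome build and strand setting are not given in those notes or labels. The deposited table holds, per the file headers, 1 count and 1 FPKM value for each gene in each library. The FPKM equalled the count over gene length and library total in 100% of values (relative tolerance 1e-06).

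Counts were tested with edgeR 4.0.16 in R 4.3.3 (quasi-likelihood F test, 1 fit of 9 libraries, expression filter, TMM scaling). Two-sided p-values were adjusted by the Benjamini-Hochberg method over 14921 genes, and genes under 0.05 are called. SE is the log2 fold change over the square root of F. The labels state biological replicates without saying more. Members, lists and tests were chosen with earlier results of these data known. Genes of lists were mostly named by the 2 smallest p in each direction in Model versus Blank. Families were named freely, the cornified envelope list included. Genes named outside this rule include Pbsn, Epcam, Cdh1, squamous keratins, Spp1, Plaur and Il1rn. Likeness took the 2 nearest profiles among genes with an established symbol and at least 1 FPKM in a group. Alternatives were RLE, total-count and epithelial scaling, no filter, DESeq2 1.42.0, the replicate block, 6-library fits and omitted libraries. Promoter sequences are from RefSeq (GRCm38.p6), and 6 of the 9 members matched. Gene coordinates are those of the deposited table, with no build assigned.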

Additional observations from a re-analysis of the deposited data

How the results depend on the processing

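The number of members called in Model versus Blank was 5, between 3 and 6 when single libraries were left out and 2 without the 2 Blank libraries with prostate transcripts (Clu and Anxa8). In CDs versus Blank it was 2, between 2 and 3 when single libraries were left out, 4 with epithelial scaling, with DESeq2 and in the 6-library fit, and 1 without the Blank libraries with prostate transcripts. In CDs versus Model it was 0, also 0 without any single library, and 1 without the libraries with pancreatic transcripts. Omissions leave fewer libraries, and other causes were not tested.

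Same-numbered libraries had correlations of deviations from -0.37 to 0.21, and differently numbered ones from -0.35 to 0.47. With 3 libraries a group these values cannot show whether the replicate numbers pair the libraries. With the replicate block 4 members were called in Model versus Blank (Ly6a, Clu, Anxa8 and Sprr1a, without Anxa1 and Ccn1) and 2 in CDs versus Blank, and 5672 and 4475 genes were called in all.

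Signs turned for Krt7 in Model versus Blank with epithelial scaling (0.46) and without the libraries with pancreatic transcripts (0.18), and for Emp1 in CDs versus Blank without those libraries (-0.059). Over single omissions Emp1 in CDs versus Blank ranged from -0.20 to 0.67, and in CDs versus Model Anxa1 from -0.31 to 0.25, Krt7 from -0.50 to 0.11, Emp1 from -0.42 to 0.0017, Clu from -0.28 to 0.11 and Sprr1a from -0.94 to 0.13. RLE scaling and no filter changed no member's call. Total-count scaling added Anxa8 in CDs versus Blank (0.85; edgeR adjusted p = 0.048). Over all genes, 6574 calls in Model versus Blank and 5309 in CDs versus Blank became 1536 and 465 without the Blank libraries with prostate transcripts, the second became 3398 without Blank 2, and 0 in CDs versus Model became 50 with DESeq2 and 1241 without the libraries with pancreatic transcripts. That last fit sets 2 CDs libraries against Model 2 alone, with its spread taken from the other groups, and describes that library and not the Model group. Epithelial scaling called 5667 higher and 283 lower in Model versus Blank, against 3654 and 2920, and 3307 and 305 in CDs versus Blank, against 3256 and 2053. At 3 libraries a group and about 32 reads in the lowest library, Sprr1a had the widest interval.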
